A study of Mus musculus with 32 samples.

Results

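Notch signalling was examined through 10 genes that code for its receptors (Notch1, Notch2, Notch3), ligands (Dll1, Dll3, Jag1) and transcription factors of the Hes and Hey families (Hes1, Hes5, Hes6, Hey1). They were taken by gene symbol from the annotated expression matrix, with every probe set of each gene. Each gene had 1 probe set, none of which was shared with another gene, so 10 of 18328 probe sets and 10 of 16195 named genes are described. Gene expression was measured on Affymetrix mouse genome arrays with total RNA from 32 mouse brain samples, 22 gliomas and 10 normal tissues. The titles divide the arrays into sets Z1 and Z2, whose meaning is not stated.

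Set Z1 held 9 gliomas of genotype hGFAP-cre;p53KO/+;Nf1+/flox, here called cis p53/Nf1 gliomas, and 3 normal forebrains. These gliomas carry 1 non-conditional p53 knockout allele and 1 conditional Nf1 allele, and the series' design describes the pair as a conditional mutation in cis. Set Z2 held 9 gliomas of genotype hGFAP-cre;p53flox/flox (p53 gliomas), 4 gliomas of genotype hGFAP-cre;p53flox/flox;Nf1KO/+ (p53 Nf1KO gliomas, with a germline Nf1 mutation), 4 normal forebrains and 3 normal cerebella. All 3 glioma models carry hGFAP-cre, in which the human GFAP promoter drives Cre recombinase. The control tissues are described as wild type, and age, sex and strain are not given in the labels. Whether the replicates came from separate animals is not stated, so that p-values measure the spread between these samples.

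Notch receptors are single-pass membrane proteins that are activated by Delta and Jagged ligands on a neighbouring cell. Ligand binding leads to cleavage by ADAM proteases and then by gamma-secretase, and the released intracellular domain enters the nucleus, where it joins the DNA-binding protein Rbpj and a Mastermind coactivator to switch on target genes. Hes1, Hes5 and Hey1 are classic targets and code for repressors of proneural factors. In the developing brain the pathway maintains neural progenitors and favours glial fates, and in blood vessels Notch3 is known from mural cells. Dll3 differs from other ligands in that it acts mainly inside its own cell, where it can inhibit Notch, and Hes6 opposes Hes1.

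Values are the deposited normalized log2 values, in which a difference of 1 is a doubling. The sets lay on different scales, with array medians of 8.48 to 8.57 in Z1 and 6.90 to 7.06 in Z2, so each glioma model was compared with forebrain of its own set. The level of a member lay no lower than the 23.6th percentile of its array in any sample. In the check of the targeted genes, Nf1 read 5.26 to 5.70 in p53 Nf1KO gliomas, below the 6.18 to 6.20 of Z2 forebrain, and 7.64 to 8.43 in cis p53/Nf1 gliomas beside 7.77 to 8.08 in Z1 forebrain. Trp53 read 5.04 to 5.50 in p53 Nf1KO and 4.996 to 6.32 in p53 gliomas beside 5.70 to 6.52 in Z2 forebrain, and 7.48 to 8.36 in cis p53/Nf1 gliomas beside 8.03 to 8.63 in Z1 forebrain. Where the probes lie relative to the altered parts of these genes is unknown. As for tissue identity, 6 of 8 cerebellar granule neuron markers and 3 of 5 Purkinje cell markers were called higher in cerebellum than in Z2 forebrain. In the gliomas all 8 cell division genes of a marker list were called higher in each model. In each Z2 model 1 library stood closer to forebrain than the rest: p53 glioma 1 had moved 13.4% of the mean change of the other p53 gliomas over all probe sets, where the others lay at 75.2% to 140.7%, and p53 Nf1KO glioma 2 lay at 44.8%, beside 75.4% to 125.5%.

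Promoter sequences are shown for Hes5, the member whose promoter held matches to the Rbpj motif, and for the ligand genes Dll1 and Dll3, whose promoters held an E-box, a motif of basic helix-loop-helix transcription factors. They come from RefSeq on build GRCm38.p6 and run from 250 bases before to 50 bases after a transcription start, in the direction of the gene. Entries were found for 8 of the 10 genes, 10 in all, and not for Hes1 and Hey1. The letters TGGGAA (Rbpj core) and CAGCTG (a form of the E-box) were searched on both strands, and other forms of the E-box were not. Capitals mark the matches to these 6 letters. The extended form GTGGGAA was searched as well, and its added base is in lower case. The windows are chr4:154960673-154960972 on the plus strand for Hes5, and chr17:15376883-15377182 and chr7:28301736-28302035 on the minus strand for Dll1 and Dll3.
Hes5: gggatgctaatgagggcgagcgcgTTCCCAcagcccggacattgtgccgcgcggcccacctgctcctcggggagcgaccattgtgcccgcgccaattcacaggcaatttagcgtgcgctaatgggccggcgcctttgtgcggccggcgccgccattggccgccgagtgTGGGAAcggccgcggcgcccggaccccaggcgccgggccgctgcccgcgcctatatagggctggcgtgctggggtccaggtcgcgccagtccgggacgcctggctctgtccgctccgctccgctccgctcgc
Dll1: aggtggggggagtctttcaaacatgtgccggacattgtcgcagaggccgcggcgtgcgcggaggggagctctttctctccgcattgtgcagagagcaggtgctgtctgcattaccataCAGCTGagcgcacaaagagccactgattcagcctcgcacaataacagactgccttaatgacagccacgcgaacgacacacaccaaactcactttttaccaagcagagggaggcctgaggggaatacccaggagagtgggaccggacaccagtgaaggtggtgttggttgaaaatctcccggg
Dll3: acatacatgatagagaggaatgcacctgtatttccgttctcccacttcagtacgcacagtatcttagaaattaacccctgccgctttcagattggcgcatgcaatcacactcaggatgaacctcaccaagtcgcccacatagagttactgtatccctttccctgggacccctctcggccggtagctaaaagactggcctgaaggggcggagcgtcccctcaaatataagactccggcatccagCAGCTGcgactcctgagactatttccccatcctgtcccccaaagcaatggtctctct

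Hes5 held 2 matches to the Rbpj core, in opposite directions. The first, read as TTCCCA, began 226 bases before the start and the second began 82 bases before it, and both extended to GTGGGAA. It was the 1 entry of 10 with this core, which 25.56% of all 32851 promoter entries held, while 6.383% held the extended form. The letters CAGCTG stood in 5 of the 10 entries, against 16.3% of all entries. These were Dll3 (7 bases before the start), Jag1 (82 bases), 1 of the 2 entries of Dll1 (132 bases) and both entries of Hes6 (150 and 171 bases). No entry held both TGGGAA and CAGCTG, and the entries of Notch1, Notch2 and Notch3 held neither. Other forms of the E-box were not counted, so an entry without CAGCTG may still hold an E-box. A match describes the letters alone and does not show that a factor binds there.

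Of the receptors, Notch1 rose in all 3 glioma models, while Notch2 and Notch3 were called in none. The Notch1 receptor, on chromosome 2, is the main Notch receptor of neural progenitors. It read 8.88, 8.85 and 8.99 in the Z1 forebrains and from 10.74 to 11.56, with a median of 11.23, in the 9 cis p53/Nf1 gliomas. All of these gliomas lay above all of the forebrains. The difference of the means was 2.33 ± 0.31 (SE), 5.01-fold, with a limma adjusted p of 1.27e-06 over all probe sets. In set Z2 the forebrains read 8.06, 7.99, 8.40 and 8.18 and the p53 gliomas 8.27 to 10.74, with a median of 10.34. Of the 9 p53 gliomas, 8 lay above every forebrain; p53 glioma 1 lay within their range. This difference was 1.91 ± 0.28, 3.77-fold (limma adjusted p = 1.91e-05), and 2.14 without p53 glioma 1. The 4 p53 Nf1KO gliomas read 9.96, 8.97, 9.70 and 10.06. They too lay above every forebrain, with p53 Nf1KO glioma 2 the lowest, and differed by 1.51 ± 0.33, 2.86-fold (limma adjusted p = 0.00594). Cerebellum, at 8.56, 8.58 and 8.27, overlapped with forebrain (0.31 ± 0.36, limma adjusted p = 0.756).

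Notch2, on chromosome 3, is a second receptor of the brain's progenitors and glia. In set Z1 it read 8.61, 8.47 and 8.21 in forebrain and 7.66 to 8.89, with a median of 7.96, in cis p53/Nf1 gliomas. The gliomas reached beyond the forebrains on both sides, and their mean lay at -0.28 ± 0.20 (limma adjusted p = 0.27). In set Z2 forebrain read 7.95, 7.84, 7.98 and 7.70, p53 gliomas 7.85 to 8.48 with a median of 8.15, and p53 Nf1KO gliomas 7.66, 8.05, 7.88 and 8.04. These groups overlapped, although 7 of the 9 p53 gliomas lay above every forebrain. The differences from forebrain were 0.26 ± 0.18 for p53 (limma adjusted p = 0.262) and 0.04 ± 0.21 for p53 Nf1KO gliomas (limma adjusted p = 0.921).

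Notch3, on chromosome 17, is known in vessels as the receptor of smooth muscle cells and pericytes. It read 7.62, 7.62 and 8.42 in Z1 forebrain and 7.04 to 9.27, with a median of 7.74, in cis p53/Nf1 gliomas. Gliomas 3, 4 and 8, at 8.88, 9.18 and 9.27, lay above every forebrain and the other 6 did not. In set Z2 it read 7.65, 7.21, 7.82 and 7.38 in forebrain, 6.82 to 8.65 with a median of 7.85 in p53 gliomas, and 6.57, 7.51, 8.16 and 6.78 in p53 Nf1KO gliomas. Gliomas of both models lay above and below the range of the forebrains. No difference from forebrain was called; it was 0.20 ± 0.42 for cis p53/Nf1, 0.30 ± 0.38 for p53 and -0.26 ± 0.44 for p53 Nf1KO gliomas, with limma adjusted p-values of 0.749, 0.553 and 0.738. In bulk samples fewer cells of a type and less RNA per cell cannot be told apart. Endothelial markers, averaged per array, ran from 7.37 to 8.95 in cis p53/Nf1 gliomas and from 7.98 to 8.19 in Z1 forebrain, and pericyte and smooth muscle markers from 7.86 to 8.89 and from 7.94 to 8.14. Of 9 endothelial genes 1 was called higher and 1 lower, and of 10 pericyte and smooth muscle genes 1 and 1, in cis p53/Nf1 as in p53 gliomas. The part of vessel cells in the Notch3 values was not tested.

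**Figure D1:**
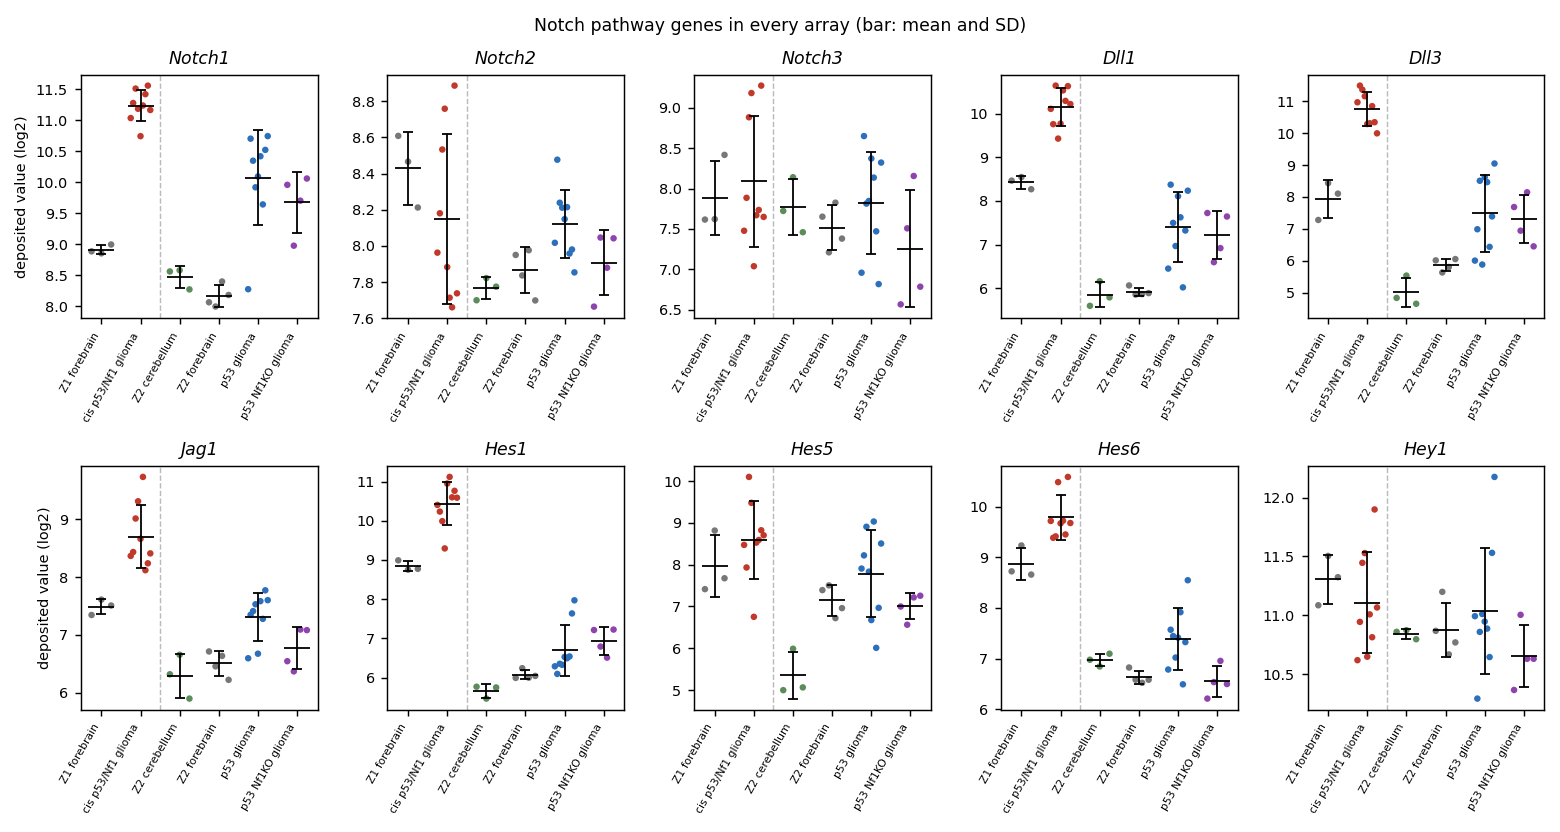
Deposited log2 value (vertical axis, a scale of its own for each gene) of the 10 Notch pathway genes in each of the 32 arrays, with 1 point per array, the mean as a long bar and the SD as whiskers, and a dashed line between sets Z1 and Z2, which lie on different scales. Notch1, Dll1, Dll3, Jag1, Hes1 and Hes6 stand higher in all 9 cis p53/Nf1 gliomas than in the 3 Z1 forebrains, and p53 glioma 1 is the p53 glioma at 8.27 in the panel of Notch1.

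The 3 ligand genes rose in cis p53/Nf1 and in p53 gliomas, and Dll1 in p53 Nf1KO gliomas as well. Dll1, on chromosome 17, codes for an activating Delta ligand that committed progenitors present to their neighbours. It read 8.46, 8.55 and 8.27 in Z1 forebrain and 9.43 to 10.64, with a median of 10.22, in cis p53/Nf1 gliomas. The groups did not overlap, and the difference was 1.73 ± 0.35, 3.31-fold (limma adjusted p = 0.000239). In set Z2 the forebrains read 6.06, 5.85, 5.86 and 5.89 and the p53 gliomas 6.02 to 8.37, with a median of 7.49. Only p53 glioma 7, at 6.02, did not lie above every forebrain, and the difference was 1.48 ± 0.32, 2.79-fold (limma adjusted p = 0.000856). The p53 Nf1KO gliomas, at 7.72, 6.60, 6.92 and 7.64, all lay above the forebrains, and differed by 1.30 ± 0.37, 2.47-fold (limma adjusted p = 0.0304). This call passed narrowly. It was lost without any 1 of the 4 forebrains (1.28 to 1.35, limma adjusted p = 0.0513 to 0.0683), without p53 Nf1KO glioma 1 (1.13, limma adjusted p = 0.106) and without p53 Nf1KO glioma 4 (1.16, limma adjusted p = 0.118).

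Dll3, on chromosome 7, the divergent ligand that acts within its own cell and is known from human neuroendocrine tumours, showed the largest difference of the 10 genes in cis p53/Nf1 gliomas. It read 7.28, 8.43 and 8.10 in Z1 forebrain and 9.99 to 11.49, with a median of 10.85, in these gliomas. Every glioma lay well above every forebrain, and the means differed by 2.81 ± 0.52, 7.03-fold (limma adjusted p = 7.4e-05). Among the p53 gliomas it varied widely, from 5.88 to 9.05 with a median of 7.39, beside 6.01, 5.63, 5.80 and 6.05 in Z2 forebrain. Gliomas 1 and 4, at 6.003 and 5.88, lay within the range of forebrain, gliomas 3, 5, 6 and 9 read 8.46 or more, and the difference was 1.61 ± 0.47, 3.05-fold (limma adjusted p = 0.00841). In the p53 Nf1KO gliomas it read 7.68, 6.94, 8.15 and 6.45. All 4 lay above the forebrains, yet the difference of 1.43 ± 0.55 was not called (limma adjusted p = 0.0971; 95% interval 0.30 to 2.56).

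Jag1, on chromosome 2, codes for a ligand of the Jagged type that is made by progenitors, vessels and astrocytes. It read 7.35, 7.61 and 7.51 in Z1 forebrain and 8.12 to 9.73, with a median of 8.43, in cis p53/Nf1 gliomas. The groups did not overlap, and the difference was 1.21 ± 0.27, 2.31-fold (limma adjusted p = 0.000658). In set Z2 the forebrains read 6.72, 6.46, 6.64 and 6.23 and the p53 gliomas 6.60 to 7.77, with a median of 7.41. Of these gliomas 7 lay above every forebrain, and gliomas 1 and 5, at 6.60 and 6.68, did not. The difference of 0.80 ± 0.25, 1.74-fold, was called (limma adjusted p = 0.0116), though not without Z2 forebrain 4 (0.71, limma adjusted p = 0.0503). The p53 Nf1KO gliomas read 6.55, 6.37, 7.09 and 7.08. Gliomas 3 and 4 lay above the forebrains and the other two among them, with a difference of 0.26 ± 0.29 (limma adjusted p = 0.583).

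Of the Hes and Hey genes, Hes1 and Hes6 were called higher in cis p53/Nf1 gliomas and Hes6 in p53 gliomas, while Hes5 and Hey1 were called in no model. Hes1, on chromosome 16, is the Notch target whose repressor keeps progenitors undifferentiated. It read 8.99, 8.75 and 8.77 in Z1 forebrain and 9.29 to 11.12, with a median of 10.59, in cis p53/Nf1 gliomas. Every glioma lay above the forebrains, glioma 4 being the lowest, and the difference was 1.60 ± 0.32, 3.03-fold (limma adjusted p = 0.000177). The p53 gliomas ran from 6.09 to 7.97, with a median of 6.49, beside 5.99, 6.24, 5.996 and 6.04 in Z2 forebrain. Of these, 8 lay above every forebrain, 6 of them at 6.54 or less, and gliomas 8 and 9 stood apart at 7.63 and 7.97. The difference of 0.62 ± 0.29 was not called (limma adjusted p = 0.0863). The p53 Nf1KO gliomas, at 7.21, 6.79, 6.51 and 7.22, all lay above the forebrains, with a difference of 0.87 ± 0.34 that was not called either (limma adjusted p = 0.101).

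Hes5, on chromosome 4, is the Notch target most tied to radial glia and neural stem cells, and its promoter is the one shown with matches to the Rbpj motif. It varied widely, with 7.41, 8.82 and 7.68 in Z1 forebrain and 6.75 to 10.10, with a median of 8.59, in cis p53/Nf1 gliomas. Gliomas 3 and 4, at 10.10 and 9.48, lay above every forebrain, glioma 8 barely so (8.823 beside 8.816), and glioma 5 lay below all 3. In set Z2 it read 7.39, 7.50, 6.72 and 6.96 in forebrain, 6.01 to 9.03 with a median of 7.91 in p53 gliomas, and 6.9995, 6.56, 7.22 and 7.26 in p53 Nf1KO gliomas. Here 6 of the 9 p53 gliomas lay above every forebrain and gliomas 5 and 7, at 6.68 and 6.01, below, while the p53 Nf1KO gliomas lay within or just below the range of forebrain. The differences from forebrain were 0.63 ± 0.53 for cis p53/Nf1, 0.64 ± 0.48 for p53 and -0.14 ± 0.56 for p53 Nf1KO gliomas, with limma adjusted p-values of 0.377, 0.306 and 0.907. The intervals are wide: that of the cis p53/Nf1 gliomas runs from -0.46 to 1.72 and so includes 0 as well as the 1.60 measured for Hes1.

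Hes6, on chromosome 1, a Hes protein that promotes neuronal differentiation by opposing Hes1, read 8.72, 9.23 and 8.66 in Z1 forebrain and 9.38 to 10.58, with a median of 9.67, in cis p53/Nf1 gliomas. The groups did not overlap, though the lowest glioma and the highest forebrain lay close together. The difference was 0.92 ± 0.29, 1.89-fold (limma adjusted p = 0.0108), and the call was lost without Z1 forebrain 1 (0.84, limma adjusted p = 0.0571) or 3 (0.81, limma adjusted p = 0.0661). In p53 gliomas it read 6.49 to 8.55, with a median of 7.42, beside 6.83, 6.59, 6.52 and 6.58 in Z2 forebrain. Of the 9 gliomas 7 lay above every forebrain, and the difference of 0.76 ± 0.26, 1.70-fold, was called (limma adjusted p = 0.0214). Without Z2 forebrain 2, 3 or 4 it was 0.75, 0.73 and 0.75 and no longer called (limma adjusted p = 0.0523, 0.0573 and 0.0523). The p53 Nf1KO gliomas, at 6.21, 6.54, 6.96 and 6.50, overlapped with forebrain (-0.08 ± 0.30, limma adjusted p = 0.898).

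Hey1, on chromosome 3, a Notch target that is known from vessels as well as from the brain, read 11.09, 11.50 and 11.32 in Z1 forebrain and 10.62 to 11.90, with a median of 11.01, in cis p53/Nf1 gliomas. In set Z2 it read 10.87, 11.20, 10.67 and 10.77 in forebrain, 10.30 to 12.17 with a median of 10.95 in p53 gliomas, and 10.37, 11.01, 10.63 and 10.63 in p53 Nf1KO gliomas. The groups overlapped in each comparison; cis p53/Nf1 gliomas 4 and 8 and p53 gliomas 8 and 9 lay above every forebrain of their set. The differences from forebrain were -0.20 ± 0.26, 0.16 ± 0.24 and -0.22 ± 0.28 (limma adjusted p = 0.603, 0.626 and 0.646).

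**Figure D2:**
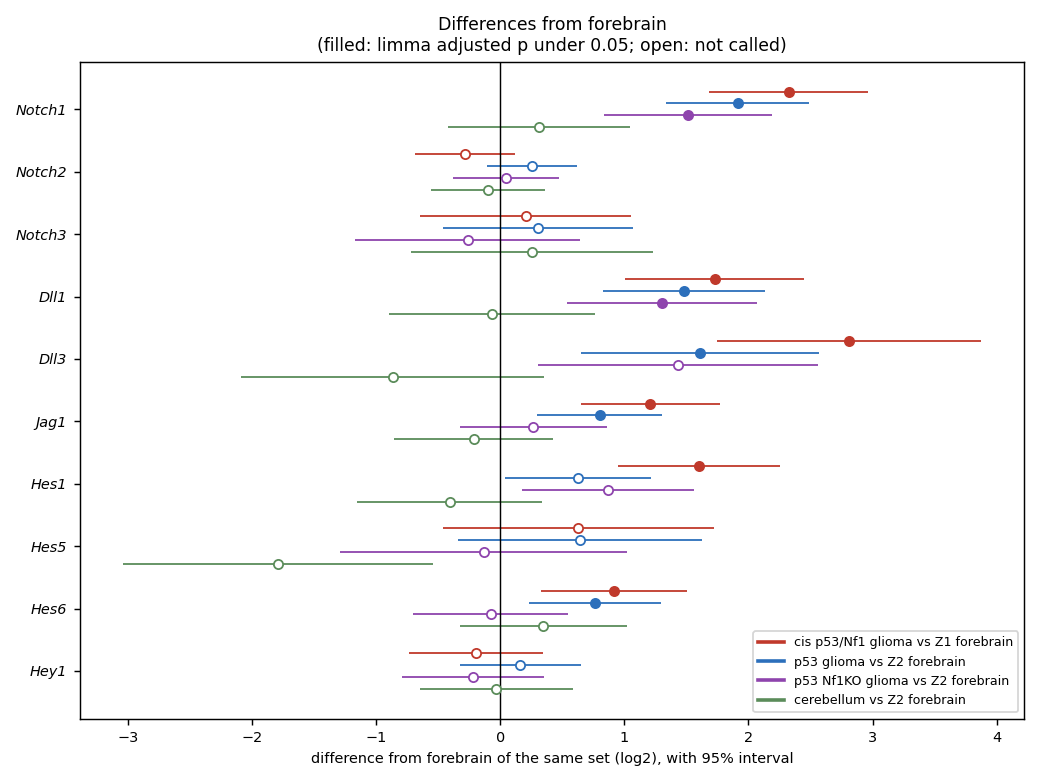
Difference from forebrain of the same set (horizontal axis, log2) for each of the 10 genes in the 3 glioma models and in cerebellum, with the point at the limma estimate and the line as its 95% interval. Filled points are called at an adjusted p under 0.05: 6 genes for cis p53/Nf1, 5 for p53 and 2 for p53 Nf1KO gliomas, all higher, and none in cerebellum.

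Counted over the 10 genes, 6 were called higher in cis p53/Nf1 gliomas and 0 lower, where 21.8% of all probe sets were called higher, 20.1% lower and 41.9% in either direction. The same 6 were the genes without overlap between gliomas and forebrains, a state that 17.9% of all probe sets showed in the higher direction. Their median difference over the 10 genes was 1.06, beside 0.003 over all probe sets. In p53 gliomas 5 were called higher and 0 lower (17.5% and 20.6% of all probe sets, 38.1% in either direction), with a median difference of 0.70 beside -0.04. No member was free of overlap here, as was true of all but 5.15% of probe sets in the higher direction. In p53 Nf1KO gliomas 2 were called higher and 0 lower (5.18% and 3.2% of all probe sets, 8.38% in either direction), with a median of 0.15 beside -0.07. Of the 10, 4 were without overlap in the higher direction there, Notch1, Dll1, Dll3 and Hes1, beside 9.97% of probe sets. The comparisons of p53 and of p53 Nf1KO gliomas share the 4 Z2 forebrains, so that their differences are not independent.

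The models were compared with each other next. Within set Z2, p53 Nf1KO and p53 gliomas can be set side by side directly, and 0 of the 10 genes were called, as was 0.142% of all probe sets. Hes6 showed the largest gap, at 6.55 ± 0.31 (SD, n = 4) in p53 Nf1KO gliomas and 7.39 ± 0.61 (SD, n = 9) in p53 gliomas, a difference of -0.84 ± 0.26 with a 95% interval of -1.37 to -0.31 (limma adjusted p = 0.199). Jag1 followed at -0.54 ± 0.25, with an interval of -1.04 to -0.03 (limma adjusted p = 0.378). These were the 2 genes at an unadjusted p under 0.05. Notch1 differed by -0.40 ± 0.28 (interval -0.98 to 0.18; limma adjusted p = 0.55) and Dll1 by -0.18 ± 0.32 (interval -0.83 to 0.47; limma adjusted p = 0.827). Without p53 glioma 1 the number of probe sets called in this comparison rose from 26 to 479, and Hes6 then differed by -0.92 (limma adjusted p = 0.0509) and Notch1 by -0.62 (limma adjusted p = 0.0628), with 0 of the 10 genes called.

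The cis p53/Nf1 gliomas belong to the other set and were compared through the difference of the differences from forebrain. Against p53 gliomas 0 of the 10 genes were called, beside 1.87% of probe sets, and 1, Hes1, had an unadjusted p under 0.05. The difference of Hes1 from forebrain exceeded that in p53 gliomas by 0.98 ± 0.43 (95% interval 0.10 to 1.85; limma adjusted p = 0.259), and that of Dll3 by 1.21 ± 0.70 (interval -0.23 to 2.64; limma adjusted p = 0.416). For Notch1 the change differed by 0.41 ± 0.42 (interval -0.45 to 1.27; limma adjusted p = 0.685). Against p53 Nf1KO gliomas 0 were called, beside 4.1% of probe sets, and Jag1 and Hes6 had an unadjusted p under 0.05. Hes6 differed there by 0.99 ± 0.42 (interval 0.14 to 1.85) and Jag1 by 0.94 ± 0.40 (interval 0.13 to 1.76), both with a limma adjusted p of 0.174. The median over the 10 genes was 0.75 in this comparison, beside 0.07 over all probe sets. A p above the threshold does not show that the models act alike, and the unequal spread of values in the sets is not removed by this comparison.

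Cerebellum was set against Z2 forebrain to show the same genes in another normal tissue. No member was called, where 5.09% of all probe sets were, 2.73% higher and 2.35% lower. The gene with the largest difference was Hes5, which read 4.999, 5.99 and 5.07 in cerebellum, below all forebrains, for a difference of -1.79 ± 0.61 (95% interval -3.04 to -0.54; limma adjusted p = 0.0902). It was the 1 member with an unadjusted p under 0.05. Dll3, at 4.83, 5.53 and 4.65, and Hes1, at 5.77, 5.46 and 5.75, also read below every forebrain, with differences of -0.87 ± 0.60 and -0.41 ± 0.37 (limma adjusted p = 0.519 and 0.656). Hes6, at 6.98, 6.85 and 7.10, was the 1 gene above every forebrain (0.34 ± 0.33, limma adjusted p = 0.683). Such a lack of overlap was found for 9.7% of all probe sets in the lower and 12.5% in the higher direction. For the other genes cerebellum overlapped with forebrain: Notch2 read 7.70, 7.82 and 7.78, Notch3 7.72, 8.14 and 7.46, Dll1 5.60, 6.16 and 5.79, Jag1 6.32, 6.66 and 5.90, and Hey1 10.86, 10.88 and 10.80.

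The rest of the pathway was read from a list of 80 further genes, of which 75 were measured. Neurl1b, Aph1c, Maml3, Tle4 and Gfap were not. In cis p53/Nf1 gliomas 24 of the 75 were called higher and 14 lower, in p53 gliomas 16 and 12, and in p53 Nf1KO gliomas 9 and 1, with median differences of 0.19, 0.11 and 0.01. Without p53 Nf1KO glioma 2 the last pair of counts was 12 and 8, and without any other single library it was 4 to 7 higher and 1 or 2 lower. Over all probe sets 21.8% were called higher and 20.1% lower in cis p53/Nf1, 17.5% and 20.6% in p53 and 5.18% and 3.2% in p53 Nf1KO gliomas. Whether the list differs from all probe sets was not tested, and its genes are described by role.

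The first roles are the machinery that cuts the receptor and the nuclear complex. Of 9 cleavage genes 5 were higher and 1 lower in cis p53/Nf1 gliomas, where 21.8% and 20.1% of all probe sets were. The gamma-secretase subunit Psenen rose by 1.89 ± 0.45 (limma adjusted p = 0.00104). It varied widely among these gliomas, from 12.11 to 15.30, beside 12.26 to 12.39 in Z1 forebrain. The lowest glioma thus read below every forebrain. The protease Adam17, which sheds Notch among many substrates, rose by 1.64 ± 0.25. The gamma-secretase subunit Aph1a rose by 1.18 ± 0.19, while Aph1b fell by 0.72 ± 0.22. In p53 gliomas 3 of the 9 rose and 0 fell, Adam17 by 1.26 ± 0.23, Ncstn by 0.80 ± 0.15 and Aph1a by 0.47 ± 0.17, and in p53 Nf1KO gliomas 0 of 9 were called. Of 19 nuclear genes 9 rose in cis p53/Nf1 gliomas, 4 of them and no others in p53 gliomas; 3 rose in p53 Nf1KO gliomas, and 0 fell in any model. Among all probe sets 21.8%, 17.5% and 5.18% rose and 20.1%, 20.6% and 3.2% fell in cis p53/Nf1, p53 and p53 Nf1KO gliomas. Rbpj, the DNA-binding partner of the Notch intracellular domain, read 10.28 ± 0.24 (SD, n = 9) in cis p53/Nf1 gliomas beside 9.42 ± 0.16 (SD, n = 3), and rose by 0.67 ± 0.15 in p53 gliomas. The coactivator Maml1 rose by 1.07 ± 0.20, 0.95 ± 0.18 and 0.69 ± 0.21 in the 3 models, and so did the corepressor genes Hdac1 and Tle3, and Tle2 rose in cis p53/Nf1 gliomas by 2.29 ± 0.42. Some of these calls rested on single arrays. In cis p53/Nf1 gliomas those of the cleavage gene Adam10 and the nuclear gene Maml2 were lost without Z1 forebrain 3. That of the nuclear gene Spen was lost without Z1 forebrain 2 or 3, and that of Rbpjl in 5 of 12 fits that left out 1 array. The call of Aph1b, named as the 1 lower gene after its value was seen, was lost without Z1 forebrain 2 (-0.57), and that of Aph1a in p53 gliomas without Z2 forebrain 1, 2 or 4 or p53 glioma 8 or 9 (0.42 to 0.54 over the arrays left out). In p53 Nf1KO gliomas Maml1 lost its call without any array but glioma 2 of that model (0.61 to 0.83), Tle3 without any forebrain or glioma 1 or 4 (0.53 to 0.70), and Hdac1 without forebrain 2 or 4 or glioma 3 or 4 (0.75 to 1.09).

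Genes that dampen or route the signal form the next roles. Of 8 genes of receptor inhibition and turnover, 1 was higher and 4 were lower in cis p53/Nf1 gliomas and 1 and 5 in p53 gliomas, while 20.1% and 20.6% of all probe sets were called lower. In p53 Nf1KO gliomas 0 of the 8 were called in either direction, beside 8.38% of all probe sets. Fbxw7, the ubiquitin ligase subunit that marks the Notch intracellular domain for degradation, fell by 2.86 ± 0.39 in cis p53/Nf1 and by 1.37 ± 0.35 in p53 gliomas, and the Notch antagonist Numbl by 0.99 ± 0.27 and 0.85 ± 0.24. Dtx2, of the Deltex family, was the one that rose, by 0.73 ± 0.14 and 0.49 ± 0.12. When single arrays were left out, the lower calls of Numb, Dtx1 and Dtx3 in p53 gliomas were lost in 6, 2 and 8 of 13 fits. Of 3 genes of ligand endocytosis, Mib2 and Neurl1a fell in cis p53/Nf1 and in p53 gliomas (Mib2 by 0.85 ± 0.14 and 0.57 ± 0.13). The other probe set of Neurl1a differed by -0.23 and 0.00. Neuron markers moved in the same direction: all 8 fell in cis p53/Nf1 gliomas and 6 of 8 in p53 gliomas, with the markers' array means at 7.42 to 9.41 beside 12.41 to 12.76 in Z1 forebrain, and at 6.34 to 11.04 beside 10.54 to 11.12 in Z2 forebrain. Their part in these results was not tested.

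Of 8 other ligands 1 was called higher and 3 lower in cis p53/Nf1 gliomas, 1 and 2 in p53 gliomas and 1 and 0 in p53 Nf1KO gliomas. Among all probe sets 21.8%, 17.5% and 5.18% were called higher in these models, in this order, and 20.1%, 20.6% and 3.2% lower. Mfap2, a microfibril protein reported to interact with Notch, rose in all 3 models (1.71 ± 0.39, 1.79 ± 0.35 and 1.43 ± 0.41). The Jagged ligand Jag2 fell by 0.62 ± 0.19 in cis p53/Nf1 and by 0.79 ± 0.17 in p53 gliomas, opposite to Jag1, and the Delta-like Dlk2 fell by 1.76 ± 0.33 and 1.21 ± 0.30. Dner, a neuronal transmembrane protein described as a Notch ligand, fell in cis p53/Nf1 gliomas by 1.65 ± 0.32. Dll4, the vessel ligand, was called in none (0.35 ± 0.21, 0.36 ± 0.19 and 0.10 ± 0.22). Its signal was low in set Z2, with means of 3.66 in forebrain, 4.02 in p53 and 3.76 in p53 Nf1KO gliomas. The 25th percentiles of the arrays of that set were 4.37 to 4.61. The remaining receptor, Notch4, known from endothelium, rose in p53 gliomas by 0.64 ± 0.25 (limma adjusted p = 0.0435). Of 5 glycosylation genes 2 were higher and 1 lower in cis p53/Nf1 gliomas, and 1 was higher in p53 gliomas. In cis p53/Nf1 gliomas the Fringe gene Lfng rose by 1.22 ± 0.38 and the fucosyltransferase gene Pofut1 by 0.47 ± 0.16, and a second Fringe gene, Rfng, fell by 0.50 ± 0.16. The other probe set of Rfng differed by -0.06 there and was called lower in p53 gliomas (-0.46). Mfng, the remaining Fringe gene, rose in p53 gliomas by 0.88 ± 0.27. Of 11 further targets 4 rose and 1 fell in cis p53/Nf1 gliomas and 3 rose in each of the other models. These 3 were Fabp7, Ccnd1 and Myc both times, and no further target on the list was called there. The shares of all probe sets are those given above for the ligands. Hey2, a close relative of Hey1, rose in cis p53/Nf1 gliomas by 1.38 ± 0.44 (limma adjusted p = 0.0133), and the feedback inhibitor Nrarp was called in no model, with differences of 0.83 ± 0.48, 0.38 ± 0.43 and 0.35 ± 0.51. Dll4, Hey2 and Nrarp were singled out after their values were seen, as relatives or feedback partners of the members. Calls were lost for Mfap2 in p53 Nf1KO gliomas without any array but p53 Nf1KO glioma 2 (1.37 to 1.48), for Jag2 in cis p53/Nf1 gliomas without Z1 forebrain 2 or 3 (-0.70 to -0.55), for Lfng (0.97) and Rfng (limma adjusted p = 0.0540) without Z1 forebrain 2, for Pofut1 without Z1 forebrain 1 or 2 (0.41 to 0.51 over all arrays left out), for Hey2 without Z1 forebrain 1 (limma adjusted p = 0.0520), and for Notch4 without Z2 forebrain 1, 2 or 3 or p53 glioma 2, 3, 5, 7 or 9 (0.50 to 0.77).

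Proneural factors, which Hes proteins repress, moved both ways. Of 11 measured, 2 were called higher and 2 lower in cis p53/Nf1 gliomas, 2 and 3 in p53 gliomas and 2 and 1 in p53 Nf1KO gliomas. The shares of all probe sets were 21.8% and 20.1%, 17.5% and 20.6%, and 5.18% and 3.2%. The neuronal factors Neurod1 and Neurod2 fell in cis p53/Nf1 (by 2.94 ± 0.72 and 2.51 ± 0.76) and in p53 gliomas (by 1.68 and 1.89). Oligodendrocyte progenitor markers rose for 6 of 7 genes in cis p53/Nf1 gliomas, for 7 in p53 gliomas and for 5 in p53 Nf1KO gliomas, with array means of 10.77 to 13.13 in cis p53/Nf1 gliomas beside 9.50 to 10.21 in Z1 forebrain, and of 8.001 to 10.87 and 9.06 to 10.30 in the Z2 gliomas beside 7.60 to 8.15. Their part in the values of Dll1, Dll3 and Hes6 was not tested. In cerebellum 2 of the 75 genes were higher and 3 lower than in forebrain, beside 2.73% and 2.35% of all probe sets. Among the lower were Nrarp at -2.01 ± 0.55 (limma adjusted p = 0.0272) and the progenitor factor Insm1 at -2.19 ± 0.44 (limma adjusted p = 0.00222). When single arrays were left out, 0 to 5 were higher and 1 to 3 lower, and Nrarp lost its call without cerebellum 1 or 4 or forebrain 1 or 2 (-2.81 to -1.46). In p53 gliomas Neurod1 lost it without any Z2 forebrain or glioma 2, 6, 7 or 8 (-1.89 to -1.34), and Neurod2 without forebrain 2 or 4 or glioma 2 or 9 (-2.17 to -1.62).

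**Figure D3:**
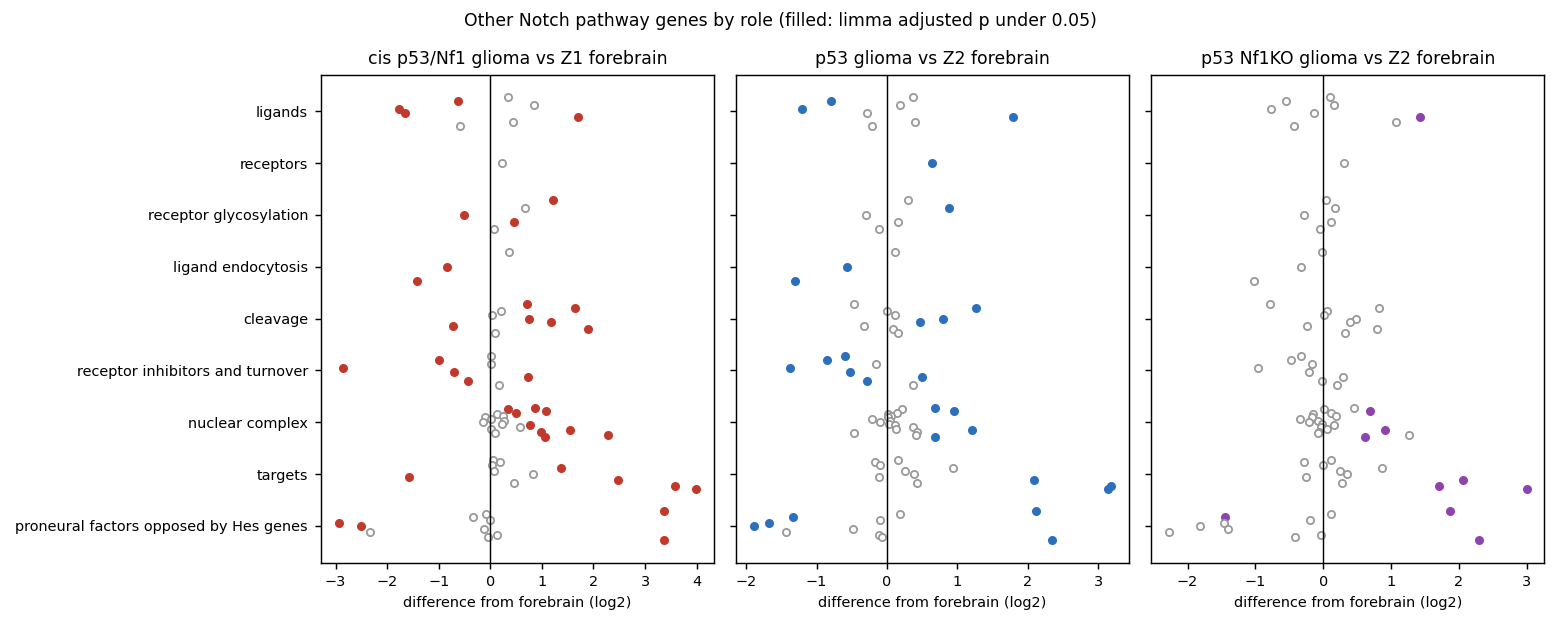
Difference from forebrain (horizontal axis, log2) of the 75 other measured pathway genes, 1 point per gene, arranged by role (vertical axis) in a panel for each glioma model. Filled points are called at a limma adjusted p under 0.05 (24 higher and 14 lower for cis p53/Nf1, 16 and 12 for p53, 9 and 1 for p53 Nf1KO gliomas); the nuclear complex has no called point below 0 in any panel.

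The 10 genes varied to different degrees among gliomas of 1 model. In cis p53/Nf1 gliomas Hes5 had an SD of 0.93 and Notch3 one of 0.81, larger than those of 96.0% and 94.2% of all probe sets, while that of Notch1, at 0.25, was larger than 44.2%. In p53 gliomas Dll3 (SD 1.22) and Hes5 (1.04) exceeded 95.1% and 92.2% of probe sets, and Notch2, at 0.19, exceeded 17.6%. Notch1 was the steadiest called member in cis p53/Nf1 gliomas but not in p53 gliomas, where its SD was 0.77 with p53 glioma 1 among them.

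**Figure D4:**
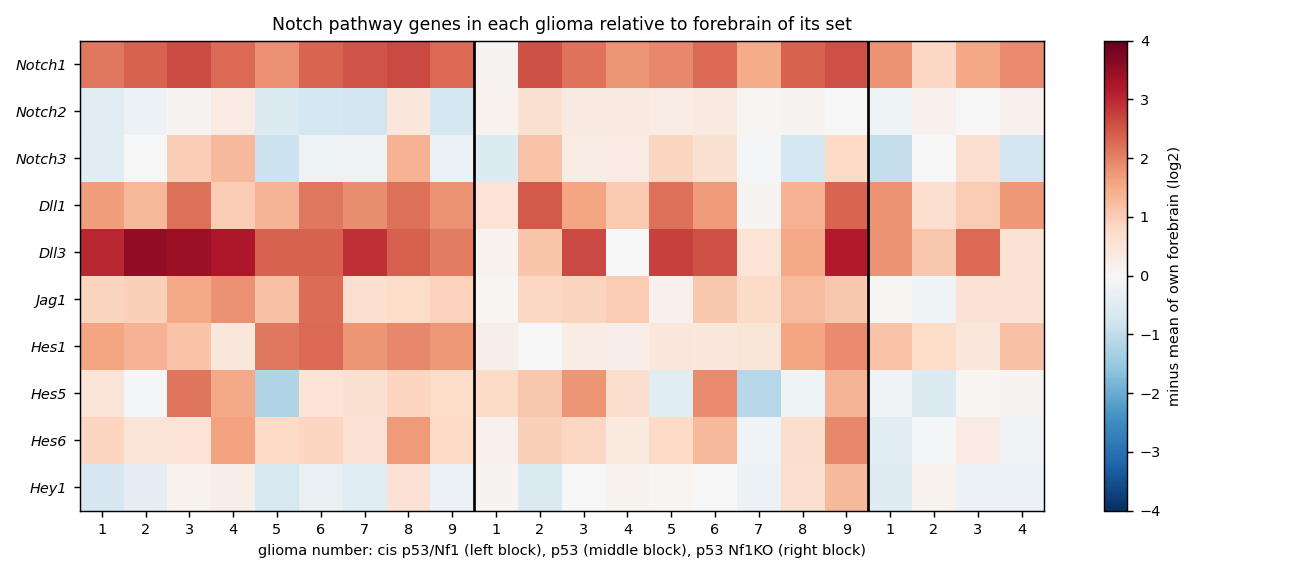
Value of each of the 10 genes (rows) in each of the 22 gliomas (columns, numbered within the model) minus the mean of the forebrains of its set, as a log2 colour scale from -4 to 4, red for higher. Notch1 is near 0 in p53 glioma 1, and Dll3 is near 0 in p53 gliomas 1 and 4 while Hes5 changes sign between gliomas of each model.

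Some members varied together. As a description over the 22 gliomas, with each value taken as the deviation from the mean of its model, Notch1 and Dll1 had a Pearson correlation of 0.730. It was 0.768 without p53 glioma 1, 0.613 within the 9 cis p53/Nf1 gliomas and 0.813 within the other 12 of set Z2. Notch2 and Notch3 had a correlation of 0.727 (0.739 without p53 glioma 1), which was 0.910 within cis p53/Nf1 and 0.418 within the 12 gliomas of set Z2. In the cis p53/Nf1 gliomas 3, 4 and 8 both receptors were at their highest, Notch2 at 8.53, 8.76 and 8.89. Notch2 and Hes1 ran opposite to each other, at -0.536 (-0.559 without p53 glioma 1, -0.580 and -0.696 within the sets). Notch3 and Hes6 had a correlation of 0.615, and Hes6 and Hey1 one of 0.591. Values of 1 array share its RNA sample, its content of tumour and normal cells and its scaling, which such correlations do not separate.

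**Figure D5:**
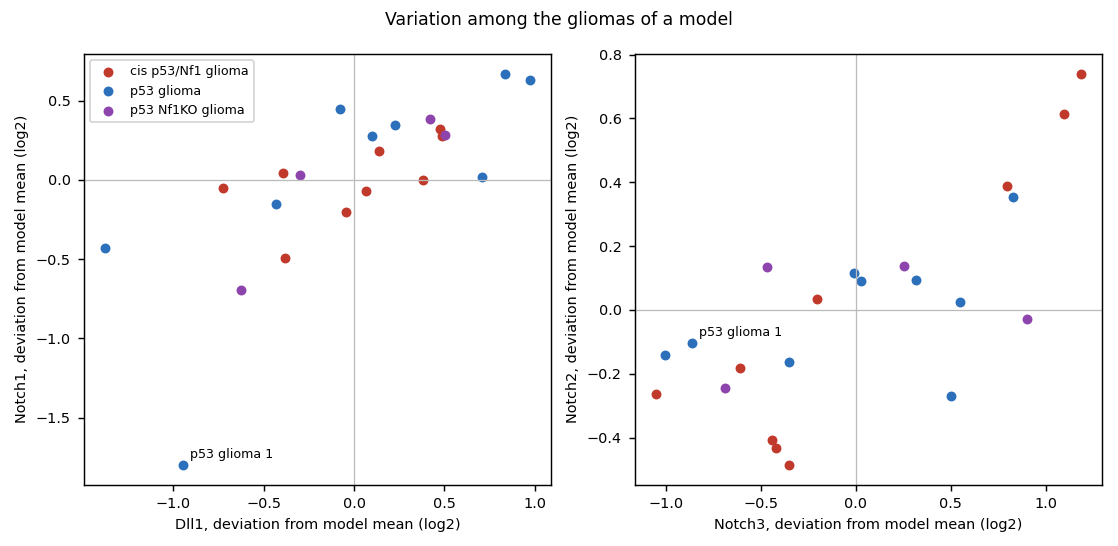
Deviation of each glioma from the mean of its model (log2) for Notch1 against Dll1 (left) and Notch2 against Notch3 (right), 1 point per glioma, coloured by model. The correlations over 22 gliomas are 0.730 and 0.727, and p53 glioma 1 is the lowest point of the left panel.

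The same measure was taken against the marker lists. Notch1 followed the mean of the 8 cell division genes, with 0.892 over the 22 gliomas and 0.733 without p53 glioma 1, in which those genes averaged 5.32, the lowest of the p53 gliomas. The mean of the cell division genes ran from 9.33 to 11.87 in cis p53/Nf1 gliomas beside 5.97 to 6.19 in Z1 forebrain, and from 5.32 to 9.93 and 7.24 to 9.69 in p53 and p53 Nf1KO gliomas beside 3.87 to 4.66 in Z2 forebrain. Notch3 had a correlation of 0.715 with the endothelial mean and 0.498 with that of pericyte and smooth muscle genes (0.693 and 0.426 without p53 glioma 1). The pericyte and smooth muscle mean had 0.570 with Notch1, and 0.320 without p53 glioma 1. Notch2 had 0.603 with the endothelial and 0.640 with the neural stem or progenitor mean (0.605 and 0.734 without p53 glioma 1). With the oligodendrocyte progenitor mean Notch1 had 0.696, Dll1 0.482, Dll3 0.528 and Hes6 0.095. Without p53 glioma 1 these were 0.366, 0.342, 0.387 and -0.145. Whether cell number or level per cell lies behind the correlations with the marker lists was not tested.

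Of all named genes outside the members, those most like each member over the gliomas were ranked by the lower of the correlations with and without p53 glioma 1. For Notch1 they were Pimreg, Galnt10 and Cenpn (0.895, 0.902 and 0.901 over 22 gliomas, 0.833, 0.831 and 0.819 over 21), of which Cenpn codes for a centromere protein. For Notch3 they were Gli2, a transcription factor of Hedgehog signalling (0.804 and 0.846), Nfatc4 (0.806 and 0.787) and Pald1 (0.804 and 0.786). Notch2 was most like Rfx2 (0.906 and 0.910), Armc10 and Clec3b. Among the ligands, Dll1 was most like the semaphorin gene Sema5b (0.878 and 0.859), Pomt2 and Lca5l, Dll3 like Zbtb39 (0.834 and 0.800), Mfsd2a and Zfp865, and Jag1 like Tram1 (0.785 and 0.756), Prrx1 and Snrpe. Hes1 was most like Lpo (0.860 and 0.855), Trib2 (0.854 and 0.896) and Rab31, Hes5 like Ccdc61 (0.794 and 0.801), Pradc1 and Gpaa1, Hes6 like Rem1 (0.829 and 0.824), Art3 and Erlin2, and Hey1 like Chpf (0.795 and 0.796), Dpf3 and Taf6l. No gene of the vessel marker lists was among these 3 for any member. With 3 places per member filled from all named genes, this does not show whether vessel cells contribute. The members themselves were left out of the ranking, so it does not show whether they are most like each other. Between Notch1 and Dll1 the correlation was 0.730 over 22 gliomas and 0.768 over 21, below those of the 3 genes named for either.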

How the data were processed

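Total RNA of 32 mouse brain samples was hybridised to Affymetrix mouse genome arrays, per the labels' protocols. The authors deposited their values, which are normalized and on the log2 scale, in 2 tables of 18328 custom-defined probe sets whose largest difference in any cell was 0. Not given in the sources used here are the way probe signals were summarised and normalized, and whether this was done for Z1 and Z2 at once. The number of arrays limits the precision. Probe sets were named through the gene identifiers of the matrix and a reference table of assembly GRCm38.p6, in which 17226 matched exactly 1 gene, 785 several and 317 none.

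All probe sets and arrays entered 1 linear model with a mean for each group (limma 3.58.1, run in R 4.3.3; lmFit, contrasts.fit and eBayes, two-sided tests), with Benjamini-Hochberg adjustment over all probe sets and calls at an adjusted p under 0.05. No filter on low values was applied. The error after a difference is its standard error, and intervals are at 95%. The 7 comparisons were the 4 against forebrain, p53 Nf1KO against p53 gliomas, and the cis p53/Nf1 change against that of each other model. The script was tested on simulated data. The alternatives were median-centred or quantile-normalized arrays within a set, a common median and spread, the compared groups alone, 1 probe set per gene, a filter on low values, an intensity trend with robust eBayes, a stricter threshold, a replicate block and leaving out each array. Same-numbered arrays were checked for pairing: of 18 pairs 3 had deviations that correlated over 0.1 (-0.331 to 0.367), and the main fit took no pairing. Arrays of unlike number were not compared, so the check cannot tell whether some same-numbered samples are paired.

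The named genes were the 10 members throughout, up to 4 called genes per pathway role and comparison by size of difference, and the 3 genes most like each member. Some further called genes are named where their calls were lost when single arrays were left out. In the likeness and correlations each glioma was taken as its deviation from the mean of its model. The 10 genes, the other pathway genes and the marker lists were chosen with earlier results of these data known. Ccnd1, Myc, Olig2 and Fabp7 are counted among the targets and proneural factors. They are not described singly here, apart from the naming of Ccnd1, Myc and Fabp7 in the count of targets. A marker list's level is the mean of its genes per array.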

Additional observations from a re-analysis of the deposited data

Results flagged for a closer look

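Of 40 pairs of a member and a group of 4 or 9 arrays, 2 held an array that lay far from the rest of its group for the group's range; chance alone marks about 1 pair in 20. Notch1 read 8.27 in p53 glioma 1, where the other p53 gliomas read 9.64 to 10.74. Dll1 read 6.06 in Z2 forebrain 1, where the other forebrains of that set read 5.85 to 5.89, a gap that is small on the log2 scale.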

How the results depend on the processing

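The number of the 10 genes called changed as follows. In cis p53/Nf1 gliomas 6 became 5 at an adjusted p under 0.01, where Hes6 was lost, and 5 to 6 when single arrays were left out. In p53 gliomas 5 became 3 at an adjusted p under 0.01, without Hes6 and Jag1, 4 with a common median and spread or with the compared groups alone, and 3 to 5 when single arrays were left out. In p53 Nf1KO gliomas 2 became 1 with a common spread or at an adjusted p under 0.01, where Dll1 was lost, and 4 with the compared groups alone, which added Dll3 (limma adjusted p = 0.0439) and Hes1 (0.0291). Leaving out single arrays gave 1 to 2. In cerebellum 0 became 1 with the compared groups alone (Hes5, limma adjusted p = 0.0289), and in the cis p53/Nf1 change against the p53 Nf1KO change 0 became 1 with a common spread (Notch1, 1.32, limma adjusted p = 0.0303). Whether some same-numbered samples are paired is not known. A fit with the replicate block gave 2 in p53 gliomas, where Dll3, Jag1 and Hes6 were lost. It gave 1 in p53 Nf1KO gliomas (Hes1, limma adjusted p = 0.0143), where Notch1 (0.0523) and Dll1 (0.0678) were lost. In the cis p53/Nf1 against the p53 change it gave 2 (Dll3 and Hes1, limma adjusted p = 0.0496 and 0.0153). The block turned Hey1 in p53 gliomas to -0.087 and Dll3 in p53 Nf1KO against p53 gliomas to 0.46. Hey1 in the cis p53/Nf1 against the p53 Nf1KO change turned to -0.083. No member was called between p53 Nf1KO and p53 gliomas under any of these. Other signs that turned were of uncalled differences near 0: Notch2 in p53 Nf1KO gliomas with median-centred arrays (-0.0082) or a common spread (-0.00315), Hes5 in the cis p53/Nf1 against the p53 change with median-centred arrays (0.0099), quantile normalization (0.023) or a common spread (0.17), and Hey1 against the p53 Nf1KO change with a common spread (-0.016). When single arrays were left out, Notch2, Hes5 and Hes6 in p53 Nf1KO gliomas ran from -0.013 to 0.12, -0.28 to 0.013 and -0.21 to 0.035, Dll1 and Hey1 in cerebellum from -0.22 to 0.057 and -0.10 to 0.075, Dll1 and Dll3 between p53 Nf1KO and p53 gliomas from -0.35 to 0.029 and -0.46 to 0.11, Notch3 and Hes5 in the cis p53/Nf1 against the p53 change from -0.25 to 0.17 and -0.29 to 0.41, and Hey1 against the p53 Nf1KO change from -0.087 to 0.14. The cause of these changes was not tested. Over all probe sets the calls also moved. Between p53 Nf1KO and p53 gliomas 26 became 2 to 10 with a stricter threshold, a common spread, the compared groups alone or the replicate block, and 7 to 479 when single arrays were left out. Of the cis p53/Nf1 against the p53 change, 343 (142 higher, 201 lower) became 1747 (928 and 819) with a common spread, 677 with the block and 66 at the stricter threshold, and quantile normalization gave 224 and 188; against the p53 Nf1KO change 752 (328 and 424) became 2621 (1424 and 1197), 1649 with the compared groups alone and 159 at the stricter threshold, and quantile normalization gave 485 and 418. In p53 gliomas 6991 became 1253 with the block and 4312 at the stricter threshold, in p53 Nf1KO gliomas 1535 became 761 and 420, and in cerebellum 932 became 414 at the stricter threshold. Single arrays moved these counts to 94 to 629, 284 to 1251, 5669 to 8049, 441 to 2686 and 282 to 1560. The small groups, of 3 and 4 arrays, and the unknown normalization limit what can be seen.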
